A study of Homo sapiens with 6 samples.

Results

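Epidermal antimicrobial proteins are described here by the messenger RNA of 7 genes in human keratinocytes: LCN2, SLPI, PI3, DEFB1, RNASE7, CAMP and LTF. They were picked out of the deposited table by gene symbol, and the table holds all 7 among its 60671 genes. The cells were HaCaT, a single established line of immortalised human keratinocytes labelled wild type. In the IFN-beta group (3 libraries) they spent 24 h in serum-free high-glucose medium with interferon beta at 160 ng/mL, and in the control group (3 libraries) they spent the same time in that medium with no interferon. The series text speaks of mouse skin, while the sample labels and every gene identifier are human. Whether the libraries of a group come from separate cultures is not labelled. The p-values therefore weigh only the spread among the libraries, and that spread may be technical. The comparison asks what a type I interferon does to the transcripts of keratinocytes.

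Skin makes its own antibiotics. Lipocalin 2 (LCN2) takes iron-carrying siderophores away from bacteria and lactoferrin (LTF) binds iron directly, SLPI and elafin (PI3) are small inhibitors of neutrophil proteases with antimicrobial activity of their own, and the beta defensin DEFB1, the ribonuclease RNASE7 and the cathelicidin CAMP yield cationic proteins or peptides that damage microbial membranes. Keratinocytes raise many of these genes after signals from interleukin 17, interleukin 22, interleukin 1 and vitamin D, while interferon beta acts through a complex that holds STAT2 and IRF9 on interferon-stimulated response elements. LCN2, CAMP and LTF are also stored in neutrophil granules.

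Values are FPKM, which corrects a gene's fragments for its length and for the depth of the library. The libraries held between 25832158 and 30594527 reads. In the check of the treatment, MX1, an antiviral GTPase, went from 4.57 ± 0.204 to 680 ± 15.7 FPKM and ISG15, a ubiquitin-like modifier, had a log2 change of 5.18. All 14 keratinocyte markers were measured at a level that could be tested, with a summed level of 4691 to 5186 FPKM in control and 4768 to 4822 FPKM in IFN-beta libraries. That sum covers changes in both directions, with 7 markers higher and 4 lower. KRT15 (log2 change -1.29) and KRT10 (-1.16), keratins of basal and of differentiating cells, fell, and COL17A1, a hemidesmosome collagen, rose (0.53). Other markers of these cells went different ways. KRT5 fell (-0.51) and TP63 rose (0.41), while KRT14 (0.09) and KRT1 (0.61, from 0.382 to 0.813 FPKM) did not pass. The part of these changes in the results below was not tested. Of 16 neutrophil markers 9 were at 0 in all 6 libraries, among them the granule genes MPO, ELANE and CTSG. The neutrophil list summed to 1.10 to 1.48 FPKM in control and 1.83 to 2.33 FPKM in IFN-beta libraries, mostly from the chemokine receptor CXCR2 (0.839 ± 0.275 and 1.78 ± 0.291 FPKM, limma adjusted p = 0.00735). The leukocyte markers summed to 5.91 to 8.05 and 8.41 to 9.54 FPKM, the fibroblast markers to 2.29 to 3.43 and 3.28 to 4.02 FPKM, the melanocyte markers to 4.14 to 4.69 and 3.34 to 3.91 FPKM, and the sweat and sebaceous gland markers to 0.505 to 0.731 and 0.264 to 0.977 FPKM in control and IFN-beta libraries. Most genes of these lists were too low to test. Tested were 3 of 12 leukocyte, 2 of 10 fibroblast, 2 of 7 melanocyte and 0 of 12 gland markers. The part of these low levels was not tested either.

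The promoters of the most abundant member, LCN2, and of the member that changed most, RNASE7, are shown as places where an interferon or inflammatory input could be read. Sites farther from the start were not searched. RefSeq promoter windows (build GRCh38.p14) were at hand for 4 of the 7 members, LCN2, RNASE7, CAMP and LTF, and not for SLPI, PI3 and DEFB1. Printed is the longest run of bases before the RefSeq start that lies outside the gene's own exons in GENCODE release 29. It was taken from the 250 bases searched and reads 5′ to 3′ on the plus strand, with motif matches in capitals. For LCN2 this is chr9:128149265-128149440 (176 bases) and for RNASE7 chr14:21042112-21042225 (114 bases). The LCN2 stretch lies inside the gene as deposited, which starts at 128149071.
LCN2: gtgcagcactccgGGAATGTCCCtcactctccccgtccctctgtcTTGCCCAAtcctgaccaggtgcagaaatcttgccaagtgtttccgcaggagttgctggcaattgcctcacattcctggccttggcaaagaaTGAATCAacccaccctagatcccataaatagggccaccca
RNASE7: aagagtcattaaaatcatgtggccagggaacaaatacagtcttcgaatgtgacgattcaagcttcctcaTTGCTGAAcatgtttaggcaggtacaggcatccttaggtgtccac

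The capitals in LCN2 mark, in order, a match to the NF-kB consensus, a match to the C/EBP letters TTNNGNAA and a match to the AP-1 letters TGANTCA. In RNASE7 they mark a C/EBP match. Both strands were searched over the 250 bases before each start. The second RNASE7 match, to AP-1, lies in an exon and is not printed. The share of all 34796 RefSeq windows of that length with a match was 9.96% for NF-kB, 33.2% for C/EBP and 6.59% for AP-1. The core of the interferon-stimulated response element (GAAA, any 2 bases, GAAA), held by 3.02% of windows, was not among the letters of the LCN2, RNASE7, CAMP or LTF windows. The gamma-activated sequence TTCNNNGAA, held by 6.57%, was found in a window of LTF. No match overlapped another. A match is a string of letters and says nothing of binding.

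Of the 7 genes, 4 were detected in both groups, with more than 3 reads in every library: LCN2, SLPI, PI3 and RNASE7. All 4 were higher with IFN-beta, where 22.5% of the 15163 genes tested were called higher and 19.9% lower, 42.4% in all (limma on log2(FPKM + 0.5), Benjamini-Hochberg adjusted p under 0.05). The other 3 genes, DEFB1, LTF and CAMP, were too low to test. A gene was tested at a mean of at least 0.5 FPKM over the 6 libraries. RNASE7, at 0.439 FPKM in control, reached that through its IFN-beta libraries alone. A member at that control level could be tested only if it rose, so the count of rises is not neutral beside the share over all genes. The 4 changes were unequal. RNASE7 rose about 8-fold from a very low level, PI3 more than doubled, and LCN2 and SLPI rose by less than 1.5-fold. RNA from the whole culture cannot tell more RNA per cell from more cells that make it. The balance of small changes over all genes depends on scaling: of all calls 53.2% were higher as reported, 63.2% with every library rescaled to the same sum, and 41.3% under quantile normalization.

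**Figure D1:**
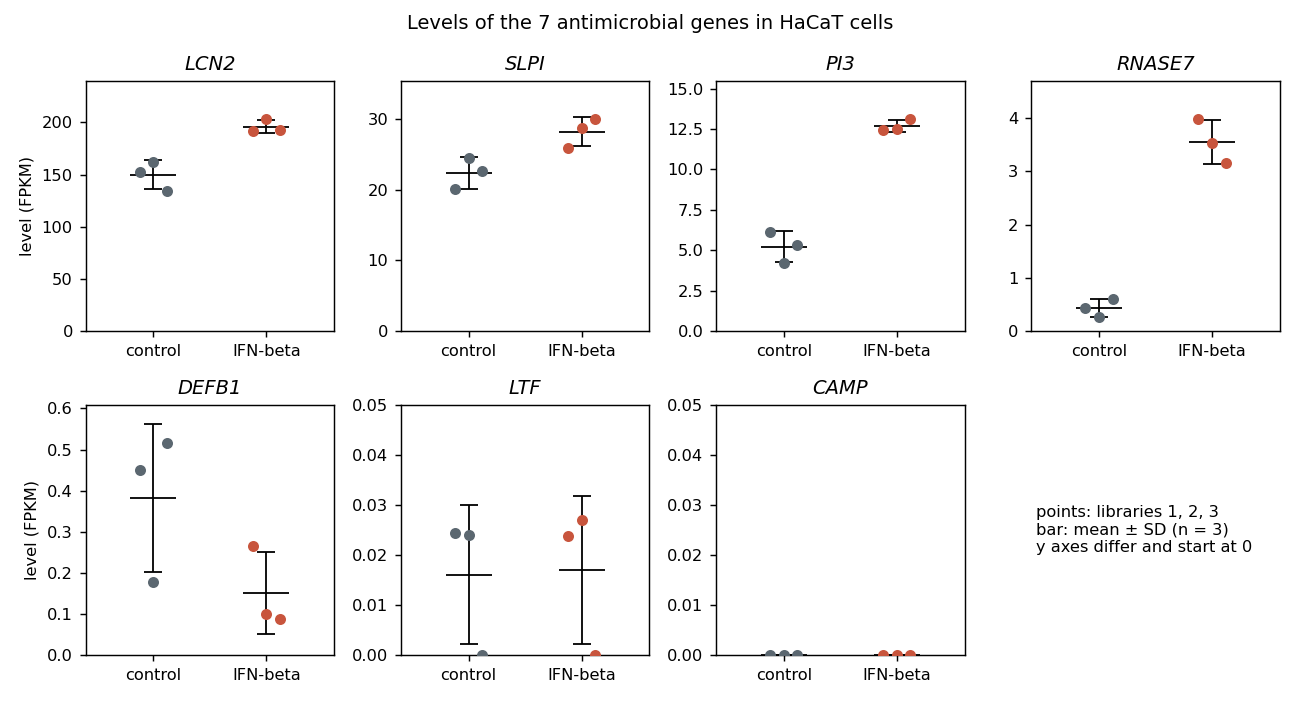
Level in FPKM (y axis, linear, starting at 0 and different in each panel) of the 7 genes in 3 control and 3 IFN-beta libraries, with points for libraries and bars for mean ± SD (n = 3). The IFN-beta points lie above all control points in LCN2, SLPI, PI3 and RNASE7, overlap them in DEFB1 and LTF, and are at 0 in CAMP.

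RNASE7 encodes a ribonuclease of the outer epidermis that kills bacteria such as enterococci. It lies on chromosome 14 from 21042316 to 21044234. Its level was 0.444, 0.263 and 0.610 FPKM in control libraries 1, 2 and 3 and 3.98, 3.53 and 3.15 FPKM in the IFN-beta libraries. Every IFN-beta value was more than 5 times the highest control value, and the control values rested on 15, 9 and 18 reads against 137, 107 and 110. The mean FPKM was 8.09 times higher with IFN-beta. On the log2(FPKM + 0.5) scale the change was 2.12 ± 0.163 (SE, limma adjusted p = 1.63e-05), which understates the ratio because the control level is near the pseudocount. With limma voom on the reads the log2 change was 3.06. Summed over libraries and scaled by depth, the ratio of reads was 8.24, with an exact 95% interval of 5.98 to 11.6 that covers counting error only. RNASE7 passed the filter on level (a mean of at least 0.5 FPKM) through the IFN-beta libraries alone, since its control mean was 0.439 ± 0.174 FPKM. Its change ranked 113 of the 15163 genes tested, counted from the largest rise, so 0.745% of them rose at least as much.

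PI3 encodes elafin, which inhibits neutrophil elastase and is cross-linked into the cornified envelope. It lies on chromosome 20 from 45174902 to 45176544, in the cluster of whey acidic protein genes that also holds SLPI. The control libraries stood at 6.14, 4.23 and 5.34 FPKM and the IFN-beta libraries at 12.5, 12.5 and 13.1 FPKM. The groups were far apart, and the IFN-beta libraries were closer to each other (SD 0.366) than the control libraries (SD 0.955). The log2 change was 1.21 ± 0.113 (SE, limma adjusted p = 5.11e-05) and the ratio of means 2.42. Among the genes tested 2.08% rose at least as much.

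SLPI encodes the secretory leukocyte protease inhibitor, the other small protease inhibitor of the group, and lies on chromosome 20 from 45252239 to 45254564. It measured 20.02, 24.5 and 22.6 FPKM in control and 25.9, 28.7 and 29.9 FPKM in IFN-beta libraries. The highest control value and the lowest IFN-beta value were close, and the groups did not overlap. The log2 change was 0.33 ± 0.080 (SE, limma adjusted p = 0.00995), with a ratio of means of 1.26. A rise of that size or more was seen in 16.2% of the genes tested.

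LCN2 was the most abundant member. It lies on chromosome 9 from 128149071 to 128153453. Control libraries 1, 2 and 3 held 153, 162 and 135 FPKM and the IFN-beta libraries 192, 203 and 193 FPKM. Control library 3 was the lowest, and all control values were below all IFN-beta values. Means were 150 ± 13.9 and 196 ± 6.27 FPKM, on 2339 to 3967 reads per library. The log2 change was 0.39 ± 0.064 (SE, limma adjusted p = 0.00133). Of all genes tested 13.2% rose at least as much. In all 4 called genes, RNASE7 among them through its IFN-beta level, every IFN-beta value exceeded every control value. That held for 28.6% of the genes tested. The groups failed to overlap in either direction in 54% of them.

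**Figure D2:**
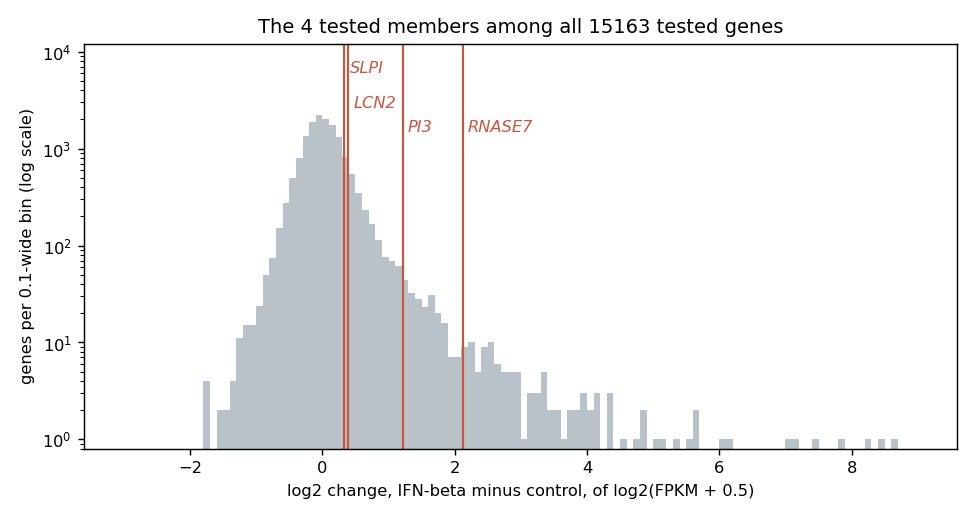
Number of genes (y axis, log scale) by log2 change of log2(FPKM + 0.5), IFN-beta minus control, in bins 0.1 wide over the 15163 genes tested, with red lines at the 4 tested members. SLPI (0.33) and LCN2 (0.39) stand on the right shoulder of the main peak, PI3 (1.21) and RNASE7 (2.12) in the right tail.

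DEFB1 encodes human beta defensin 1, which epithelia make without a stimulus. It lies on chromosome 8 from 6870592 to 6877936. The control libraries held 5, 2 and 5 reads (0.451, 0.178 and 0.516 FPKM) and the IFN-beta libraries 3, 1 and 1 reads (0.265, 0.10 and 0.0872 FPKM). Only control libraries 1 and 3 exceeded the floor of 3 reads, which is 0.261 to 0.310 FPKM for this gene, and the groups overlapped. The ratio of summed reads, IFN-beta over control, was 0.408 with an exact 95% interval for counting error of 0.112 to 1.24, so no difference was detectable at this depth. Without the filter on level the limma adjusted p was 0.189.

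LTF encodes lactoferrin and lies on chromosome 3 from 46435645 to 46485234. In each group its libraries 1, 2 and 3 carried 1, 1 and 0 reads, all under the floor of 3 reads (0.0711 to 0.0842 FPKM). CAMP, on chromosome 3 from 48223347 to 48225491, encodes the precursor of the peptide LL-37. It was listed at 0 in all 6 libraries, where 3 reads would be 0.132 to 0.156 FPKM at the length GENCODE gives. Neither transcript was detectable at this depth in either group.

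The order of the levels was the same in both groups. In control, LCN2 was 6.69 times SLPI in FPKM, SLPI 4.27 times PI3, and PI3 11.9 times RNASE7, each with ranges over libraries that did not overlap. RNASE7 and DEFB1 overlapped in control. With IFN-beta, SLPI was 2.22 times PI3 and PI3 3.57 times RNASE7, and RNASE7 (3.15 to 3.98 FPKM) stood clear of DEFB1 (0.0872 to 0.265 FPKM). LTF and CAMP overlapped at the bottom in both groups. The gene length behind the FPKM matched the mean length of the GENCODE transcripts in LCN2 (673 bases) and SLPI (596 bases). It did not in PI3, RNASE7, DEFB1 and LTF, so ratios between genes depend on an annotation known only in part. No exonic base of the 7 genes is shared with another GENCODE gene on either strand.

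The counts that follow for relatives and partner genes stand beside 22.5% called higher and 19.9% called lower over all genes tested, and none was tested against that background. Of 17 other genes of the whey acidic protein and protease inhibitor family 3 could be tested and 1 rose. WFDC2 went from 34.2, 33.4 and 35.8 to 39.8, 43.6 and 44.8 FPKM (log2 change 0.31 ± 0.054, limma adjusted p = 0.00197). WFDC3 (0.11) and ANOS1 (-0.02) did not pass. Among 18 other lipocalins 2 were tested and neither passed, APOM at 1.70 and 1.73 FPKM and C8G at 0.675 and 0.612 FPKM. The other 22 beta defensins were all below the filter and 20 of them were at 0 in every library. DEFB4A, the inducible human beta defensin 2, had 5, 4 and 2 reads in control and 0, 0 and 4 reads in IFN-beta libraries, and its reads cannot be told from those of its near-identical copy DEFB4B.

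Of 13 genes of the ribonuclease A family and its inhibitor, 2 were tested and neither passed. RNH1, the cytosolic inhibitor that binds these ribonucleases, stood at 82.5 ± 3.73 and 79.7 ± 2.33 FPKM (log2 change -0.05). Angiogenin (ANG) stood at 0.693 ± 0.409 and 0.794 ± 0.368 FPKM, and 54.5% of its exonic bases belong to another gene too, which makes its level uncertain. RNASE8, the closest paralog of RNASE7, was at 0 in all libraries.

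MELTF, a membrane-bound relative of lactoferrin, rose from 26.9, 27.4 and 23.1 to 34.9, 38.0 and 38.8 FPKM (log2 change 0.52 ± 0.072, limma adjusted p = 0.000498). The transferrin receptor TFRC stood at 410 ± 13.7 and 396 ± 6.16 FPKM and did not pass. LRP1, an endocytic receptor that takes up lactoferrin, was lower by the test (log2 change -0.25 ± 0.084, limma adjusted p = 0.0413). Its groups overlapped, and the call ended without control library 1 or 2 (limma adjusted p = 0.120 and 0.134), without IFN-beta library 1, 2 or 3 (0.0989, 0.0713 and 0.107), without the filter on level (0.124), in eBayes without trend (0.0973) and after rescaling to the same sum (0.0920). Of the 7 transferrin family genes and receptors listed, 3 were tested, with 1 higher and 1 lower. Of 4 genes for lipocalin 2 receptors and siderophore synthesis only BDH2, which makes the mammalian siderophore, could be tested, at 2.30 and 2.11 FPKM, and it did not pass.

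Of 13 proteases that process antimicrobial precursors or are held in check by them 7 were tested, with 1 higher and 3 lower, where 42.4% of all genes were called in either direction. KLK5, a kallikrein that cuts the cathelicidin precursor in the stratum corneum, fell from 104, 104 and 94.97 to 68.5, 62.5 and 63.0 FPKM (log2 change -0.64 ± 0.052, limma adjusted p = 2.27e-05). Annotation on the opposite strand covers 12.2% of its exonic bases. KLK8 (-0.50) fell too, although another gene holds 40.1% of its exonic bases. KLK7, which sheds corneocytes, had a log2 change of -0.37 with groups that overlapped narrowly (limma adjusted p = 0.0261). That call ended without control library 1 or 2 (limma adjusted p = 0.0779 and 0.0943), without IFN-beta library 2 or 3 (0.0810 and 0.0774), without the filter on level (0.0827) and in eBayes without trend (0.0552). ST14, the membrane protease matriptase, rose from 144, 138 and 129 to 218, 219 and 245 FPKM (log2 change 0.73 ± 0.058, limma adjusted p = 2.07e-05). ADAM17 (0.02) and PRSS8 (0.06) did not pass. The neutrophil proteases that SLPI and elafin inhibit were absent or nearly so, with ELANE and CTSG at 0 and PRTN3 at 1 read in 1 library.

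Both listed vitamin D hydroxylases rose, and CAMP, a known target of the vitamin D receptor in human cells, was at 0 in both groups. CYP27B1, which makes the active hormone, went from 13.6, 11.99 and 12.7 to 26.5, 28.8 and 28.9 FPKM (log2 change 1.11 ± 0.061, limma adjusted p = 1.99e-06). CYP24A1, which degrades the hormone and is itself induced by it, went from 9.96, 9.46 and 9.47 to 28.6, 29.9 and 26.5 FPKM (log2 change 1.51 ± 0.059, limma adjusted p = 1.63e-07). In both genes the groups were far apart. The receptor VDR rose by 0.21 and its partner RXRA fell by 0.24 on the log2 scale, and the coactivator NCOA3 (0.07) did not pass. Of these 5 genes 3 rose and 1 fell.

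**Figure D3:**
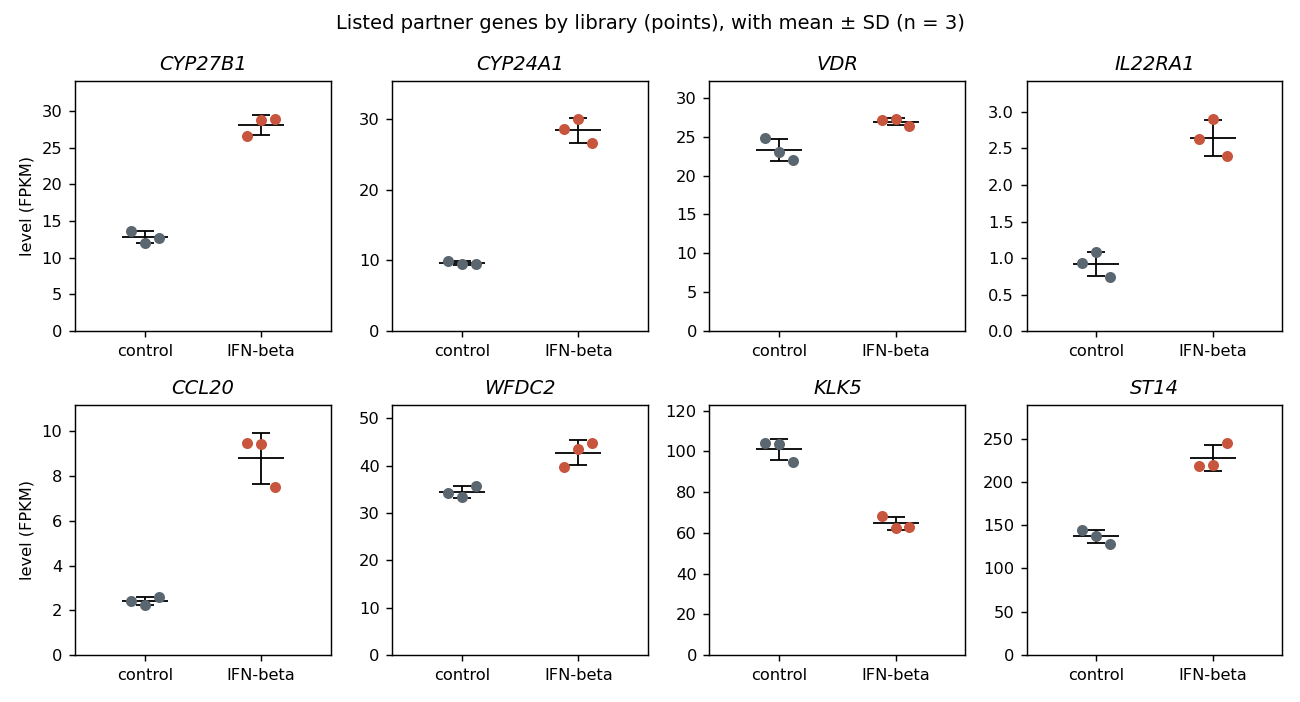
Level in FPKM (y axis, linear, starting at 0 and different in each panel) of 8 listed partner genes in control and IFN-beta libraries, with points for libraries and bars for mean ± SD (n = 3). CYP27B1, CYP24A1, VDR, IL22RA1, CCL20, WFDC2 and ST14 are higher in all 3 IFN-beta libraries and KLK5 is lower in all 3.

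Receptors that feed the antimicrobial genes rose in part. Of 17 genes of the interleukin 17, 22 and 1 inputs 14 were tested, 7 rose and none fell, with a median log2 change of 0.19 against 0.01 over all genes tested. IL22RA1, a receptor chain for interleukin 22, went from 0.936, 1.08 and 0.742 to 2.62, 2.90 and 2.40 FPKM (log2 change 1.15 ± 0.133, limma adjusted p = 0.000185). The receptor chain IL10RB was below the filter, at 0.213 and 0.320 FPKM, with overlapping groups. Another gene holds 38.1% of its exonic bases. MYD88, the adaptor of interleukin 1 and Toll-like receptors, rose by 1.08 and IL1RL2, the interleukin 36 receptor, by 0.63. IRAK1 (0.06) and TRAF3IP2, the adaptor of the interleukin 17 receptor (0.04), did not pass. IL17C, an interleukin 17 that epithelial cells make, had at most 1 read in a library.

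Of 18 transcription factors linked to antimicrobial genes all were tested, 11 rose and 2 fell. STAT2 rose by 2.49 and IRF9 by 1.82, the last with 48.4% of exonic bases that another gene holds too, which leaves its level uncertain. The 2 lower were CEBPA (-0.45) and GRHL2 (-0.14, limma adjusted p = 0.0257). Annotation on the opposite strand covers 43.4% of the exonic bases of CEBPA, and without known strandedness reads of the strands cannot be told apart. The GRHL2 call ended without control library 1 or 2 (limma adjusted p = 0.0587 and 0.0865), without IFN-beta library 2 or 3 (0.0519 and 0.0948), in eBayes without trend (0.0675) and after rescaling to the same sum (0.122). NFKB1 stood at 45.5 ± 2.02 and 45.4 ± 2.00 FPKM and did not pass. Of the other NF-kB genes, NFKB2 (log2 change 0.72), RELB (0.50) and RELA (0.11) rose. REL (-0.02), with 43.3% of its exonic bases in another gene too, did not pass. ELF3, an epithelial ETS factor, stood at 35.2 ± 6.12 and 30.4 ± 0.306 FPKM and did not pass (limma adjusted p = 0.18). Without control library 3 its log2 change was -0.34 and it passed (limma adjusted p = 0.000634).

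Among 28 other antimicrobial genes of the epidermis 8 were tested, 4 rose and none fell. The chemokine CCL20, which also kills bacteria, went from 2.42, 2.24 and 2.60 to 9.49, 9.45 and 7.49 FPKM (log2 change 1.67 ± 0.106, limma adjusted p = 4.83e-06). DUOXA1, which matures the hydrogen peroxide source DUOX1, rose by 0.30, with 19.1% of its exonic bases under annotation of the opposite strand. Adrenomedullin (ADM) had a log2 change of 0.29 with overlapping groups (limma adjusted p = 0.0445). Without control library 3 the change was 0.17. The call ended without control library 2 or 3 (limma adjusted p = 0.0877 and 0.0746), without IFN-beta library 1, 2 or 3 (0.109, 0.0603 and 0.122), without the filter on level (0.135), in eBayes without trend (0.10) and after quantile normalization (0.0783). DUOX1 (0.06) and DUOX2 (0.19) did not pass, and 12 of the 28 genes were at 0 in every library.

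**Figure D4:**
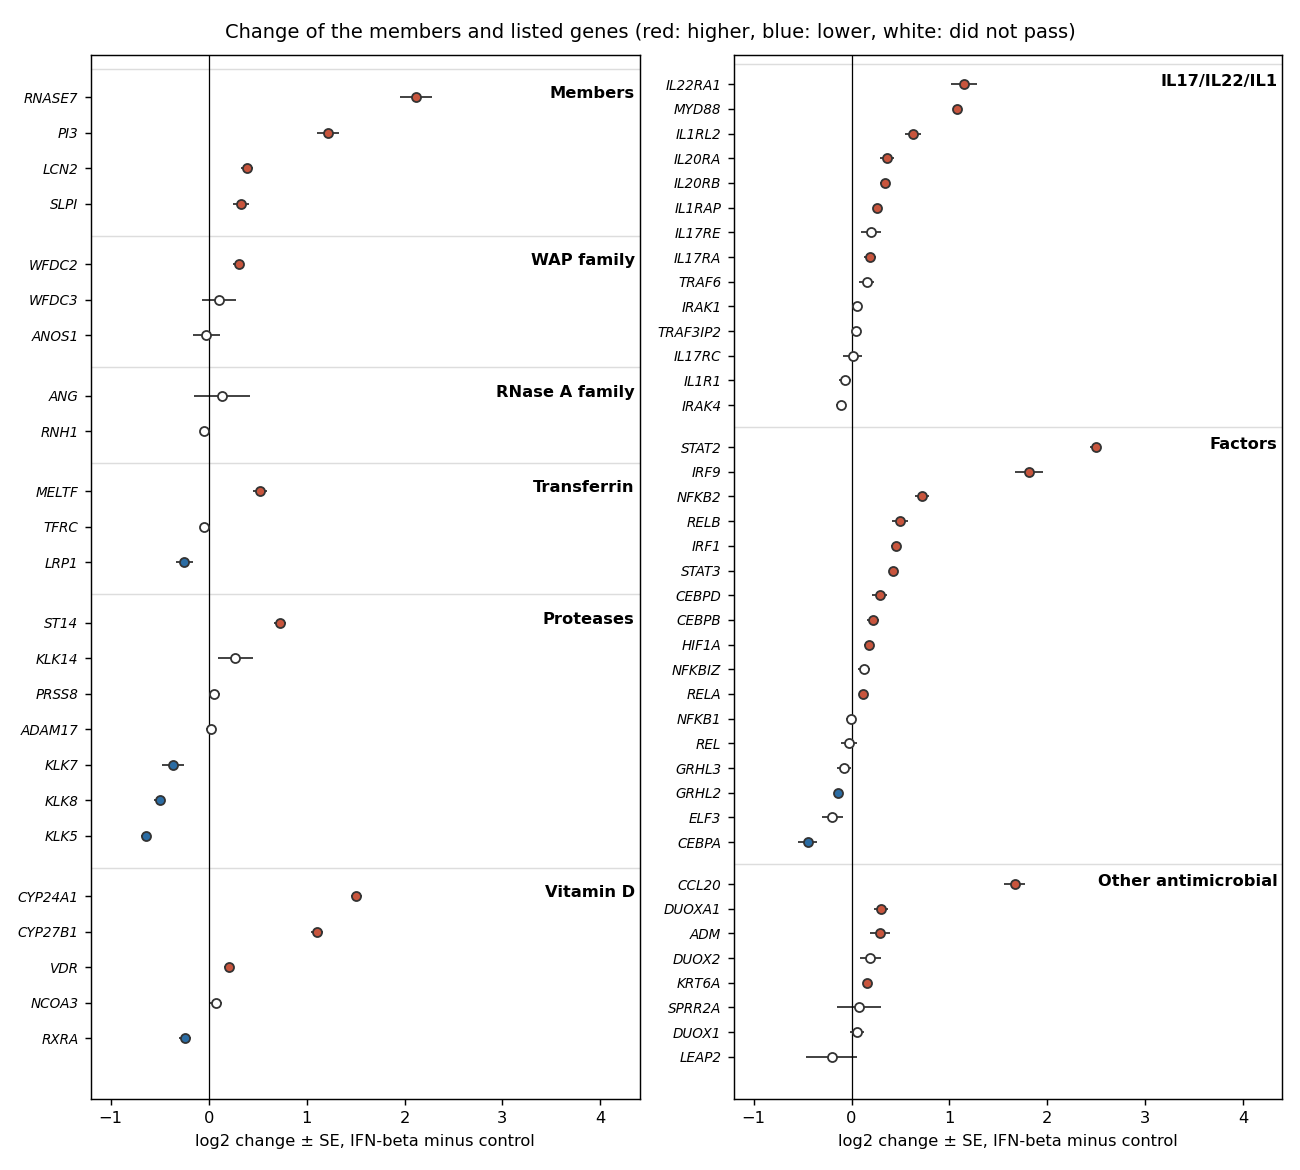
Log2 change ± SE (x axis, IFN-beta minus control, of log2(FPKM + 0.5)) of the tested members and of tested genes of 8 lists, red where higher, blue where lower and white where the test was not passed (limma adjusted p of 0.05). RNASE7 and PI3 lie among the larger rises, and KLK5, KLK7, KLK8, CEBPA, GRHL2, RXRA and LRP1 are the genes called lower.

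Over the 6 libraries the genes that followed each member most closely on the log2 scale were PHLDB2 (Pearson r = 0.9995) and MIR100HG (0.9991) for RNASE7 and MMP3 (0.9981) and SH2D5 (0.9974) for PI3. For LCN2 they were RELL1 (0.9965) and ZNF281 (0.9963) and for SLPI AL136131.3 (0.9955) and AC106886.5 (0.9928). These values are a description over 6 points that share the group difference. An r over 0.95 was reached by 1302 genes for RNASE7, 1321 for PI3, 611 for LCN2 and 69 for SLPI.

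The called changes of the 4 members held their direction and their side of the threshold in each of the 16 other ways of processing in which they could be tested. LCN2 ranged from 0.31 to 0.45 on the log2 scale, SLPI from 0.25 to 0.39, PI3 from 1.08 to 1.33 and RNASE7 from 1.66 to 3.06, the last span set by the pseudocount and the read-based fit. The weakest was SLPI, with limma adjusted p up to 0.0406, reached without IFN-beta library 3. RNASE7 was not tested at a minimum mean of 2 FPKM, since its mean was 1.99 FPKM.

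**Figure D5:**
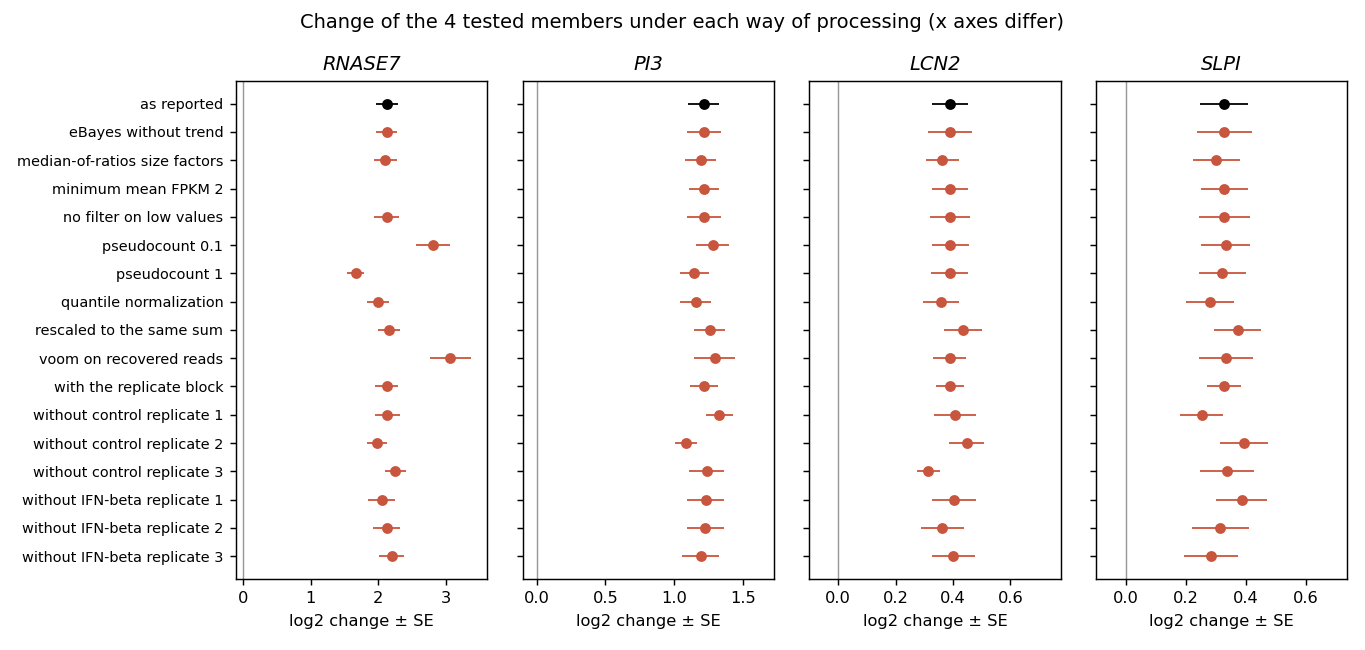
Log2 change ± SE (x axis, different in each panel) of RNASE7, PI3, LCN2 and SLPI as reported (black) and under each other way of processing (red, 1 row each). All points lie to the right of 0, and RNASE7 has no point at a minimum mean of 2 FPKM.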

How the data were processed

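The authors deposited 1 table of FPKM values for 60671 genes, with the unit given by its name. Per the labels' protocols, total RNA was used and CLC Genomics Workbench 11.0.1 is listed without a step. Aligner, counter and strandedness were not given in the sources used here. The builds, per the submitters' processing notes, were GRCm38 and mm10, mouse builds, while 60671 identifiers are human. The deposited coordinates are printed as given, and 44942 genes have the same ones in GENCODE 29 (GRCh38).

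Reads were recovered from the FPKM steps. Of the 30507 genes above 0, 100% gave whole reads within 0.01, summing to 99.76% of the library totals. For genes with reads in few libraries that outcome was near certain, since lengths were tried until the reads were whole. The totals were inferred from the same FPKM values. In 11604 well-covered genes the length behind the FPKM had a median ratio of 1 to GENCODE's mean transcript length (10th to 90th percentile 0.976 to 1.1), and 25.3% were within 1 base of it. Elsewhere the smallest length that gave whole reads was used, as for PI3, RNASE7, DEFB1 and LTF. Reads in low genes may be a multiple of those printed. The floor was 3 reads.

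The test was limma 3.58.1 in R 4.3.3 on log2(FPKM + 0.5) (eBayes with trend, two-sided) over 15163 genes with a mean of at least 0.5 FPKM. Adjustment was by Benjamini-Hochberg over all of them, with a threshold of 0.05. The fit was tested on simulated data with noise independent between libraries, a setting these libraries may not meet. The outcome is not given here and carries no weight for the calls. Python 3.11.15, pandas 2.3.3, scipy 1.17.1 and matplotlib 3.10.9 were used. Alternatives were pseudocounts of 0.1 and 1, no filter, a minimum of 2 FPKM, 3 other scalings, eBayes without trend, the replicate block, and each library left out. Limma voom on recovered reads was added after seeing the data.

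The members and lists were chosen with earlier results of these data known. Named are the members, up to 3 called and up to 2 other tested genes per list, the 2 genes most alike to each tested member, MX1 and ISG15. One gene that the rule names is not reported here. The marker lists are given as sums and counts, with CXCR2, KRT15, KRT10 and COL17A1 named by the rule. KLK7, VDR, CEBPA, GRHL2, DEFB4A, RNASE8, IL17C, PRTN3, MPO, ELANE and CTSG fall outside it and were picked with their values known. The same holds for NFKB2, RELB, RELA, REL, IL10RB, KRT5, TP63 and KRT1, for which the alternatives are not given.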

Additional observations from a re-analysis of the deposited data

How the results depend on the processing

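The counts of called genes moved by less than 1.5 times under all 16 alternatives, from 2732 to 4071 higher and from 2370 to 3893 lower. Over the 63 tested genes of the pathway lists 28 were called higher, with 23 to 29 under the alternatives. The 7 called lower became 4 in eBayes without trend, and 4 to 8 when single libraries were left out, with 4 without control library 1 or 2 or IFN-beta library 2 or 3. Of the 55 other genes followed through the alternatives 38 kept direction and side under every one. Changes of sign fell on genes that had not passed and did not pass then. After quantile normalization ADAM17 was at -0.021, APOM at -0.090, TRAF3IP2 at -6.7e-05 and WFDC3 at -0.017, and ADAM17 at -0.0064 with median-of-ratios size factors. After rescaling to the same sum ANOS1 was at 0.0085 and NFKB1 at 0.043. With single libraries left out, ADAM17 ranged from -0.014 to 0.043, ANOS1 from -0.080 to 0.043, NFKB1 from -0.039 to 0.033, APOM from -0.12 to 0.18, ANG from -0.11 to 0.39, C8G from -0.24 to 0.11, DUOX1 from -0.024 to 0.12, WFDC3 from -0.080 to 0.22, BDH2 from -0.20 to 0.011 and IRAK1 from -0.0015 to 0.090.

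Deviations from the group means had r of -0.052, -0.098 and -0.058 between same-numbered libraries. Whether these libraries share a culture or a preparation is not labelled, and with 3 libraries per group these r cannot decide it. With the replicate block 3082 genes were called higher and 2735 lower, 26 and 7 of them in the pathway lists, and the members kept their calls: LCN2 0.39, SLPI 0.33, PI3 1.21 and RNASE7 2.12. DEFB1, LTF and CAMP were too low to test at this depth, with 12, 2 and 0 reads over the control libraries.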
